A study of Mus musculus with 15 samples.

Results

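The TNF ligand and receptor superfamily was followed in mouse mammary tumours of mice on the Wsh and B6 backgrounds. Members were all genes named Tnfsf or Tnfrsf with a number in the array files, with 1 ligand gene left out by the rule, together with Tnf, Lta, Ltb, Ltbr, Fas, Fasl, Cd27, Cd40 and Cd40lg. The rule found 38 genes, 14 ligands and 24 receptors, with 64 of 56605 non-control probes. Of these, 33 genes (12 ligands and 21 receptors) had a probe that was well above background on 7 or more of the 15 arrays, among 22342 such genes in all.

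All tumours arose spontaneously in mice carrying MMTV-PyMT, a transgene in which the mouse mammary tumour virus promoter drives the polyoma middle T oncogene in mammary epithelium, and all mice were 20 weeks old. There were 7 arrays of PyMT tumours on the Wsh background and 8 arrays of PyMT tumours on the B6 (C57BL/6) background. Wsh mice carry the W-sh allele, an inversion next to Kit, the stem cell factor receptor gene, and adults lack mast cells. The question named in the series title is the effect of mast cells on the cancer cells, but the lack of mast cells, the inverted allele and other DNA of the 2 backgrounds cannot be told apart in this design. The labels do not say whether tumours shared a mouse, and the p-values cover only the spread from sample to sample seen here.

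Ligands of this superfamily are mostly membrane proteins that act as trimers on neighbouring cells, and some are also shed. Their receptors fall into those with a cytoplasmic death domain, which can start apoptosis, those that bind TRAF adaptors and turn on NF-kappaB, and decoys that bind ligand without such a signal. Lymphotoxins and their receptor organise lymph nodes and lymphoid tissue, Tnfsf13b (BAFF) with its receptors keeps B cells alive, and a group of receptors costimulates T cells. In the mammary gland, Tnfrsf11a (RANK) is an epithelial receptor needed for alveolar growth in pregnancy.

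Kit read as its labels say in every array. It averaged 0.59 ± 0.52 in Wsh tumours (SD, n = 7) and 3.24 ± 0.62 in B6 tumours (SD, n = 8), and the groups did not overlap (limma log2 difference -2.65, SE 0.28, adjusted p = 0.000208). Each level is the log2 signal less the 75th percentile of its array, so that a negative level lies below that percentile. The mean of 7 measured mast cell markers, each set to its own average over the arrays, ran from -1.86 to -1.11 in Wsh and from -0.32 to 2.72 in B6. The 10 luminal epithelial markers were well above background on all arrays. Non-control spots well above background made up 63.3% ± 4.40 in Wsh (SD, n = 7) and 62.3% ± 6.41 in B6 (SD, n = 8). Precision is limited by how many arrays there were. The arrays came on 2 slides, slide 1 with replicates 1 to 4 of both groups.

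The tumours differed widely among themselves in lymphoid transcripts, and several superfamily members were lymphoid genes. The mean of 9 measured B cell markers, each centred on its mean over the arrays, ran from -2.21 to 2.92 in Wsh and from -2.35 to 1.92 in B6. The mean of 11 T cell markers ran from -1.39 to 1.97 in Wsh and from -1.5 to 1.21 in B6. Of 7 measured genes of lymph node stroma and high endothelial venules, the mean ran from -1.80 to 3.34 in Wsh and from -2.92 to 2.21 in B6. Well above background on all arrays were 4 of the 9 B cell markers, 10 of the 11 T cell markers and 3 of the 7 stroma and venule genes. In bulk tumour RNA, fewer cells of a type and less RNA per cell cannot be told apart. Skeletal muscle markers also varied, with a mean from -2.44 to 6.34 in Wsh and from -2.48 to 3.1 in B6, and 3 of 6 had an unadjusted p under 0.05 between the groups.

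**Figure D1:**
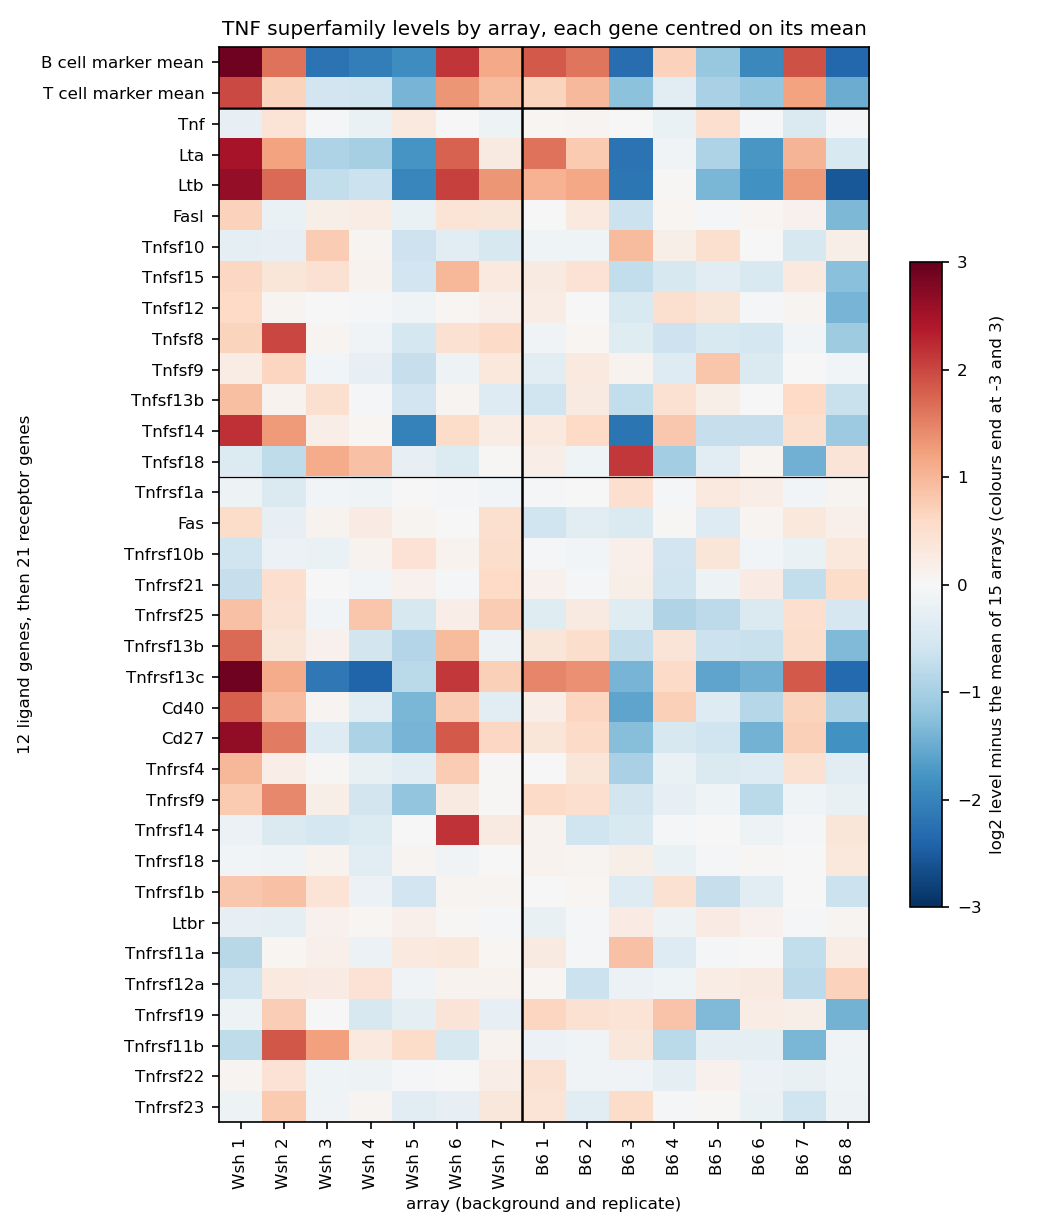
Log2 levels of the 33 members measured, each centred on its mean over 15 arrays, with Wsh arrays left of B6 arrays, the B cell and T cell marker means on top, ligands above receptors, and colours that end at -3 and 3. Lta, Ltb, Tnfrsf13c and Cd27 vary most from array to array, with high and low arrays in both groups.

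No member changed between Wsh and B6 tumours past the threshold of adjusted p 0.05 over all genes in limma. The count was 0 of 33 members, against 0.336% of all genes (75 of 22342, 24 higher and 51 lower in Wsh). At an unadjusted p under 0.05 there were 4 members (Tnfsf8, Tnfrsf25, Tnfrsf1a and Tnfsf15), against 10.4% of all genes. The groups were apart for 0 of 33 members and for 0.358% of all genes. The difference lay above 0 for 26 of the 33 members and for 48.2% of all genes, with a median log2 difference of 0.23 for the members and -0.01 for all genes. The median of the members was 0.096 with array weights, 0.12 with the T cell marker mean as covariate and 0.41 when the arrays that held skeletal muscle transcripts were dropped. Several leukocyte lists lay the same way, above 0 for 9 of 9 B cell (median 0.31), 10 of 11 T cell (0.73), 12 of 12 macrophage (0.35) and 6 of 6 NK cell markers (0.44). None of these markers passed in limma, and 4 had an unadjusted p under 0.05. Dendritic cell (5 of 6), neutrophil (3 of 4), plasma cell (4 of 6) and mast cell markers (1 of 7) varied. Skeletal muscle (6 of 6, median 3.27), adipocyte (7 of 8, 0.85) and lymph node stroma and venule genes (6 of 7, 0.75) also lay above 0. Counts were 4 of 6 for basal, 3 of 7 for endothelial and 2 of 10 for luminal markers. The part of these cell types and tissues in the differences of the members was not tested beyond the covariate fits. The lowest adjusted p among the members was 0.311. In 32 other settings no member passed either, including those with the adipocyte and skeletal muscle marker means, the B cell marker mean or the T cell marker mean as covariates. In these covariate fits the lowest limma adjusted p of a member was 0.0960 (Tnfsf8), 0.0851 (Ltb) and 0.330, in that order.

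**Figure D2:**
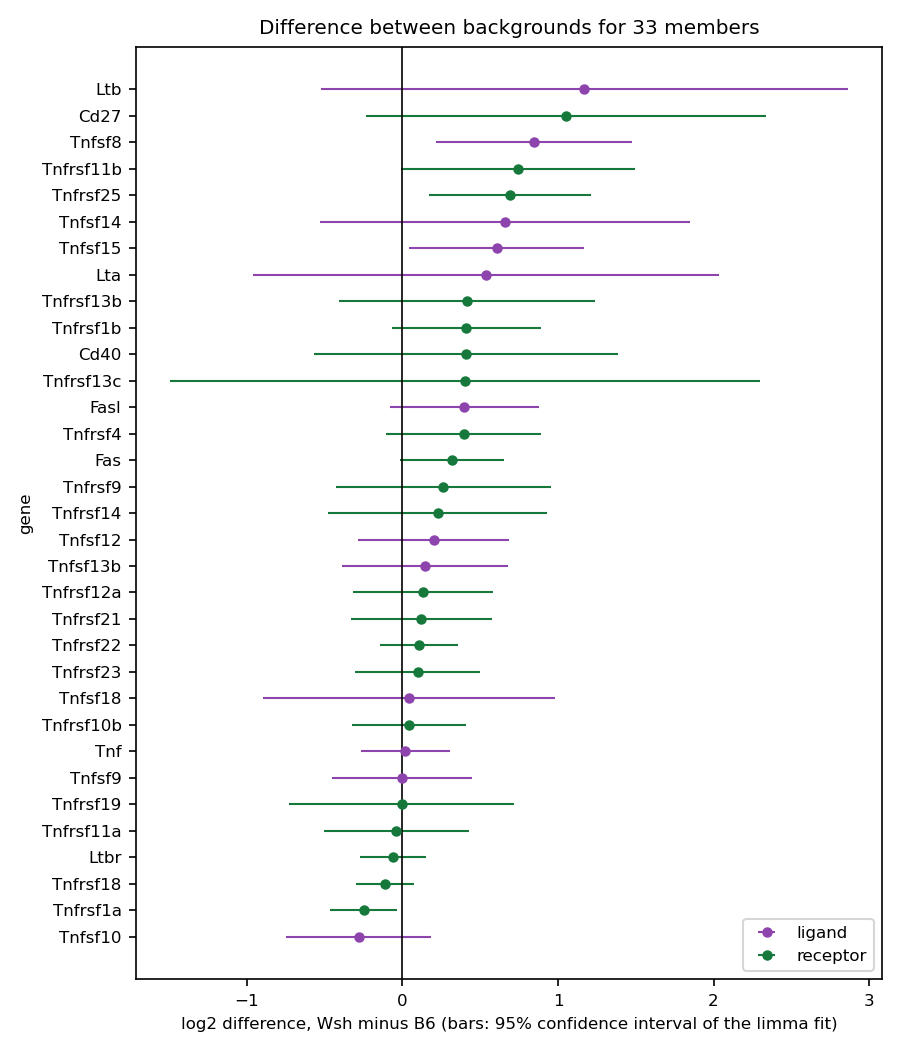
Log2 difference, Wsh minus B6, of 33 members (points, coloured as ligand or receptor) with the 95% confidence interval of the limma fit (bars), sorted by size. The differences run from -0.28 for Tnfsf10 to 1.17 for Ltb, and the widest intervals belong to Tnfrsf13c, Ltb and Lta.

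Among the ligands, the lymphotoxins had the widest spread. Ltb, lymphotoxin beta, forms with lymphotoxin alpha the membrane ligand of Ltbr. Its levels, lowest, median and highest, were -1.0, 2.30 and 3.61 in Wsh, against -1.58, 0.30 and 2.25 in B6. Wsh replicates 1, 2, 6 and 7 lay above every B6 array and Wsh replicate 5 lay among the lowest arrays, so the groups overlapped. The log2 difference was 1.17 (SE 0.80, limma adjusted p = 0.666), with a 95% confidence interval from -0.52 to 2.87. It was 0.27 with the T cell marker mean as covariate, 0.43 with array weights, 0.72 on slide 1 alone and 2.32 when the arrays that held skeletal muscle transcripts were dropped. The limma adjusted p of Ltb was lowest, at 0.0851, with the B cell marker mean as covariate. Lta, lymphotoxin alpha, which is also secreted as a trimer that binds the TNF receptors, ran at -5.91, -3.87 and -1.65 in Wsh, against -6.34, -4.41 and -2.51 in B6. Its values overlapped nearly throughout (log2 difference 0.54, SE 0.70, limma adjusted p = 0.856). With 1 array left out the difference ran from 0.17 (without Wsh replicate 1) to 0.88 (without Wsh replicate 5), and its probe was well above background on 5 of 7 Wsh and 6 of 8 B6 arrays. Tnf, the founding inflammatory cytokine, stayed between -2.48 and -1.82 in Wsh and between -2.66 and -1.73 in B6. Its difference was 0.02 (SE 0.13, limma adjusted p = 0.976), with an interval from -0.27 to 0.31, and a second probe gave 0.44.

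Tnfsf8 (CD30 ligand), a ligand of activated lymphocytes, had the largest moderated t of all members. Its levels were -2.81, -1.83 and -0.27 in Wsh, lowest, median and highest, against -3.35, -2.69 and -2.21 in B6. Of the Wsh arrays, 5 lay above the highest B6 array and 2 lay inside the B6 range, and Wsh replicate 2 stood highest. The log2 difference was 0.85 (SE 0.30, limma adjusted p = 0.311), and it ran from 0.56 to 1.37 over the other settings. Its second kept probe gave 1.21.

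Tnfsf15 (TL1A), the ligand of the death domain receptor Tnfrsf25, had -5.19, -4.26 and -3.61 in Wsh, against -5.86, -5.01 and -4.18 in B6. It was well above background on 6 of 7 Wsh and 4 of 8 B6 arrays, and the groups overlapped (log2 difference 0.61, SE 0.26, limma adjusted p = 0.444). With normexp background correction the difference was 0.29. Tnfsf14 (LIGHT), a ligand of Tnfrsf14 and Ltbr, had -6.93, -4.68 and -2.71 in Wsh, against -7.08, -5.11 and -4.09 in B6, with a signal well above background on 4 arrays of each group. The highest value was Wsh replicate 1 and the lowest B6 replicate 3, and the difference of 0.66 (SE 0.56, limma adjusted p = 0.749) was 0.31 with normexp correction and 0.08 on slide 2 alone.

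Fasl, the death ligand of cytotoxic lymphocytes, had levels of -4.02, -3.58 and -3.12 in Wsh, against -5.16, -3.77 and -3.52 in B6. The groups overlapped, with B6 replicate 8 lowest of all arrays (log2 difference 0.40, SE 0.22, limma adjusted p = 0.584). Without B6 replicate 8 the difference was 0.23, and the deposited values gave 0.19. Of the remaining ligands, those measured had differences of -0.28 for Tnfsf10 (TRAIL, a death ligand), 0.20 for Tnfsf12 (TWEAK, which acts on Tnfrsf12a), -0.0019 for Tnfsf9 (the ligand of Tnfrsf9), 0.14 for Tnfsf13b and 0.04 for Tnfsf18 (the ligand of Tnfrsf18). None of these passed, with limma adjusted p between 0.721 (Tnfsf10) and 0.999 (Tnfsf9). For Tnfsf12, B6 replicate 8 was lowest of all arrays, at -4.28, and the medians were -2.84 in Wsh and -2.86 in B6. Its difference was as low as 0.017 in the other settings. Further kept probes of Tnfsf13b gave 0.63 (SE 0.22) and -0.10, and another kept probe of Tnfsf10 gave 0.05, so the probes of these genes disagreed. The ligands Cd40lg, which engages CD40 on B cells, and Tnfsf4, the ligand of Tnfrsf4, were not kept. Cd40lg was well above background on 1 Wsh and 0 B6 arrays, and the better Tnfsf4 probe on 0 Wsh and 1 B6 array.

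**Figure D3:**
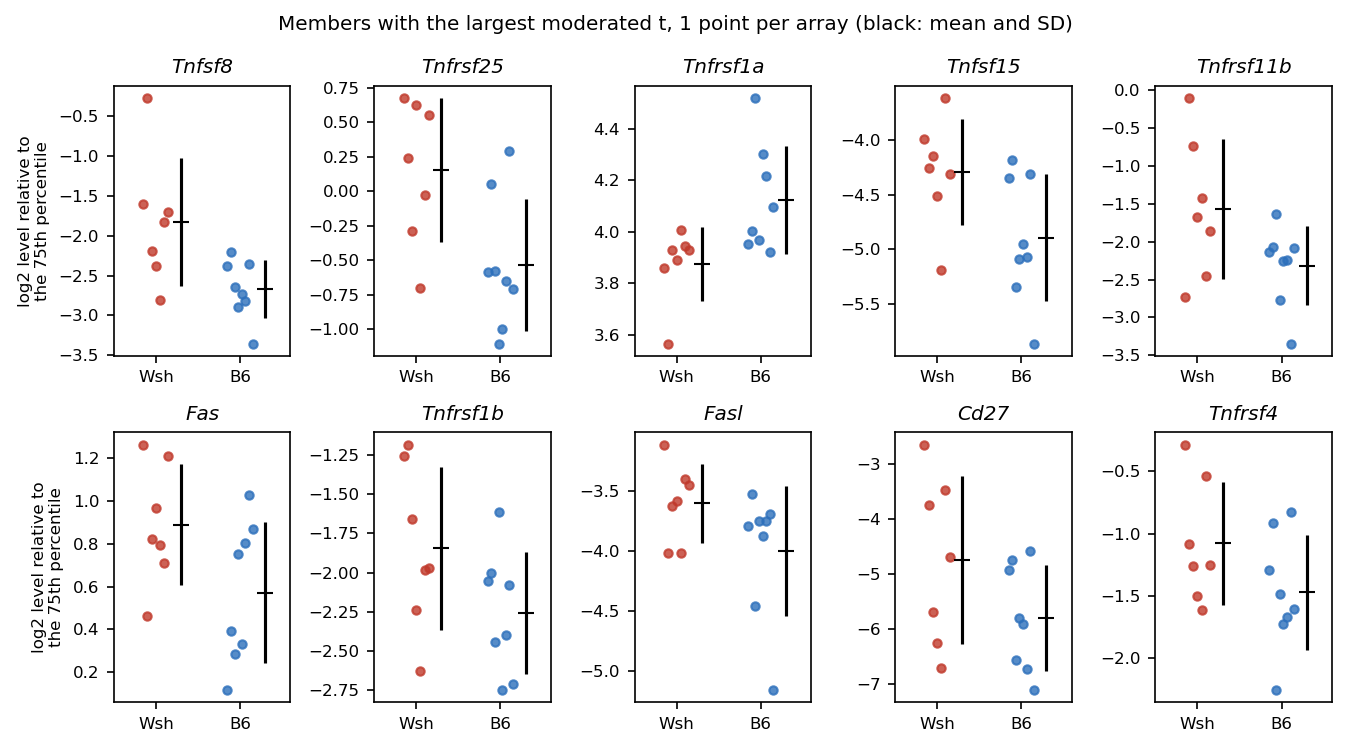
Log2 levels of the 10 members with the largest absolute moderated t for Wsh minus B6, with Wsh left of B6, 1 point per array and the mean and SD in black (n = 7 Wsh and 8 B6). In every panel at least 1 Wsh point lies within the B6 range.

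Of the death domain receptors, Tnfrsf25 (DR3), found mainly on T cells, had -0.70, 0.24 and 0.68 in Wsh, against -1.11, -0.62 and 0.29 in B6. Wsh replicates 1, 4 and 7 lay above all B6 arrays and Wsh replicate 5 lay among the low B6 arrays. The log2 difference was 0.69 (SE 0.24, limma adjusted p = 0.319) with an interval from 0.17 to 1.21. Tnfrsf1a (TNFR1), the widely expressed receptor of Tnf, was the member with the largest t below 0. It had 3.57, 3.93 and 4.01 in Wsh, against 3.92, 4.05 and 4.52 in B6, so Wsh replicates 1, 2 and 4 lay below all B6 arrays. The log2 difference was -0.25 (SE 0.10, limma adjusted p = 0.405), and a second probe gave -0.14. The levels of these 2 probes did not vary together over the arrays (Pearson r = 0.03).

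Fas, the receptor of Fasl, had 0.46, 0.82 and 1.26 in Wsh, against 0.12, 0.57 and 1.03 in B6. The ranges overlapped for most arrays (log2 difference 0.32, SE 0.16, limma adjusted p = 0.506). Its other 2 kept probes gave 0.01 and 0.54, and the probe with 0.54 has coordinates on chromosome 4 in the files while the other Fas probes are on chromosome 19. Tnfrsf10b, the mouse receptor of TRAIL, had 0.10, 0.80 and 1.22 in Wsh, against 0.14, 0.64 and 1.07 in B6. The difference was 0.04 (SE 0.17, limma adjusted p = 0.964) and changed sign in 5 of 32 other settings. Further kept probes of Tnfrsf10b gave 0.33 (SE 0.22) and 0.40 (SE 0.33). Tnfrsf21, another death domain receptor, had a difference of 0.12 (limma adjusted p = 0.904).

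Of the receptors of B cells, Tnfrsf13c, the BAFF receptor, had the largest SD of all members, 1.81 over 15 arrays. Its levels were -4.58, -1.47 and 0.73 in Wsh, against -4.52, -2.60 and -0.34 in B6. High and low arrays occurred in both groups, and the log2 difference of 0.40 (SE 0.89, limma adjusted p = 0.926) was -0.63 on slide 1 alone and 1.55 on slide 2 alone. Without Wsh replicate 1 it was -0.05. Cd40, a receptor of antigen-presenting cells that takes T cell help, had -5.43, -3.99 and -2.27 in Wsh, against -5.66, -4.16 and -3.35 in B6, and was well above background on 6 arrays of each group (difference 0.41, SE 0.46, limma adjusted p = 0.826). With 1 array left out that difference ran from 0.14 (without Wsh replicate 1) to 0.67 (without Wsh replicate 5). Tnfrsf13b (TACI), a further receptor of BAFF, had a difference of 0.42 (limma adjusted p = 0.779), and another kept probe gave 0.05. Tnfrsf17 (BCMA), known from plasma cells, was well above background on 1 Wsh and 2 B6 arrays and was not kept.

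Among the costimulatory receptors, Cd27, found on T cells and memory B cells, ran at -6.71, -4.70 and -2.66 in Wsh, against -7.12, -5.85 and -4.59 in B6. Wsh replicates 1, 2 and 6 lay above every B6 array and the remaining Wsh arrays lay within the B6 range. The log2 difference was 1.05 (SE 0.60, limma adjusted p = 0.591), with a signal well above background on 4 of 7 Wsh and 3 of 8 B6 arrays, and the deposited values gave 0.54 and normexp correction 0.50. Tnfrsf4 (OX40), a receptor of activated T cells, had -1.62, -1.26 and -0.29 in Wsh, against -2.26, -1.55 and -0.83 in B6, with overlap of the groups (log2 difference 0.39, SE 0.23, limma adjusted p = 0.609). Tnfrsf9 (4-1BB) had a difference of 0.26, Tnfrsf14 (HVEM) of 0.23 and Tnfrsf18 (GITR) of -0.11, with limma adjusted p from 0.728 to 0.877. For Tnfrsf14, Wsh replicate 6 stood far above the other arrays, at -2.15, and the median was -4.52 in Wsh against -4.39 in B6. Its difference changed sign in 2 of 32 other settings. Tnfrsf8 (CD30), the receptor of Tnfsf8, was well above background on 0 of 15 arrays.

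The 5 receptors of epithelium, stroma and myeloid cells had SDs from 0.17 to 0.68 over the arrays. Ltbr, the lymphotoxin beta receptor, stayed between 2.67 and 3.11 in Wsh and between 2.75 and 3.22 in B6. Its difference was -0.06 (SE 0.10, limma adjusted p = 0.898) with an interval from -0.27 to 0.15. Tnfrsf11a (RANK) had 0.58, 1.48 and 1.75 in Wsh, against 0.67, 1.41 and 2.30 in B6, a difference of -0.04 (SE 0.22, limma adjusted p = 0.973) that changed sign in 8 of 32 other settings. Its other 2 probes gave -0.28 and -0.19. Tnfrsf1b (TNFR2), prominent on leukocytes, had -2.63, -1.97 and -1.18 in Wsh, against -2.75, -2.24 and -1.61 in B6. Its difference was 0.41 (SE 0.22, limma adjusted p = 0.559), and its second kept probe gave -0.18 and did not follow the first over the arrays (Pearson r = -0.25). Tnfrsf12a, the TWEAK receptor, differed by 0.13 and Tnfrsf19 (TROY) by -0.0040, with limma adjusted p of 0.894 and 0.999. Another kept probe of Tnfrsf19 gave 0.30.

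Tnfrsf11b, osteoprotegerin, a secreted decoy, had -2.73, -1.67 and -0.11 in Wsh, against -3.34, -2.19 and -1.64 in B6. Of the Wsh arrays, replicates 2, 3 and 5 lay above every B6 array, and Wsh replicate 1 lay near the bottom of the B6 range. The log2 difference was 0.75 (SE 0.35, limma adjusted p = 0.487) with an interval from -0.0060 to 1.5. The mouse decoy receptors Tnfrsf22 and Tnfrsf23 differed by 0.11 and 0.10 (limma adjusted p = 0.826 and 0.915). Their neighbour Tnfrsf26 was well above background on 3 Wsh and 3 B6 arrays and was not kept.

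Spread over the 15 arrays set 5 members apart with an SD above 1, against 6.03% of all genes. They were Tnfrsf13c (1.81), Ltb (1.71), Lta (1.44), Cd27 (1.33) and Tnfsf14 (1.17). The median SD was 0.50 for the 33 members and 0.30 for all genes. The smallest SDs of members belonged to Tnfrsf18 (0.15) and Ltbr (0.17).

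Members were then set against the B cell, T cell, macrophage and luminal epithelial marker means, in a limma fit of the slope with a term for group over all genes outside each marker list, which gave 132 relations of members. No member is a marker. A slope is the change in log2 level per unit of the log2 marker mean. On the B cell marker mean 9 of 33 members passed, all with slopes above 0, against 4.03% of all genes, or 2.79% with a slope above 0. They were the ligands Ltb (slope 0.79, SE 0.05, limma adjusted p = 1.93e-07), Lta (0.67), Tnfsf14 (0.45) and Tnfsf15 (0.20), and the receptors Tnfrsf13c (0.88, SE 0.06, limma adjusted p = 2.06e-07), Cd27 (0.58, SE 0.05, limma adjusted p = 1.05e-05), Cd40 (0.39), Tnfrsf13b (0.34) and Tnfrsf4 (0.20). The limma adjusted p of the 6 members given by slope alone ran from 3.43e-05 (Lta) to 0.0247 (Tnfsf15). Tnfsf15 did not pass in 7 of 9 other settings, nor without each of Wsh replicate 5 and B6 replicates 1, 3, 7 and 8 (limma adjusted p up to 0.064). Leaving out any 1 array gave between 8 and 12 members past the threshold. Among genes well above background on all arrays, 4 of 27 members passed, against 3.5% of all 18595 such genes. Of the 9 members, 4 (Ltb, Tnfrsf13c, Tnfrsf13b and Tnfrsf4) were well above background on all arrays. Cd27 was so on 7 arrays, Tnfsf14 on 8, Tnfsf15 on 10, Lta on 11 and Cd40 on 12, mostly arrays with a high B cell mean, so the slopes of these 5 rest in part on signals not well above background. With normexp correction the slope of Cd27 was 0.36 and that of Tnfsf14 0.28. Within slide 1 the slopes of Ltb, Tnfrsf13c and Cd27 were 0.70, 0.89 and 0.56, and within slide 2 they were 0.93, 0.83 and 0.66. On each slide alone 4 of 33 members passed, against 238 and 213 of 22333 genes on slides 1 and 2.

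**Figure D4:**
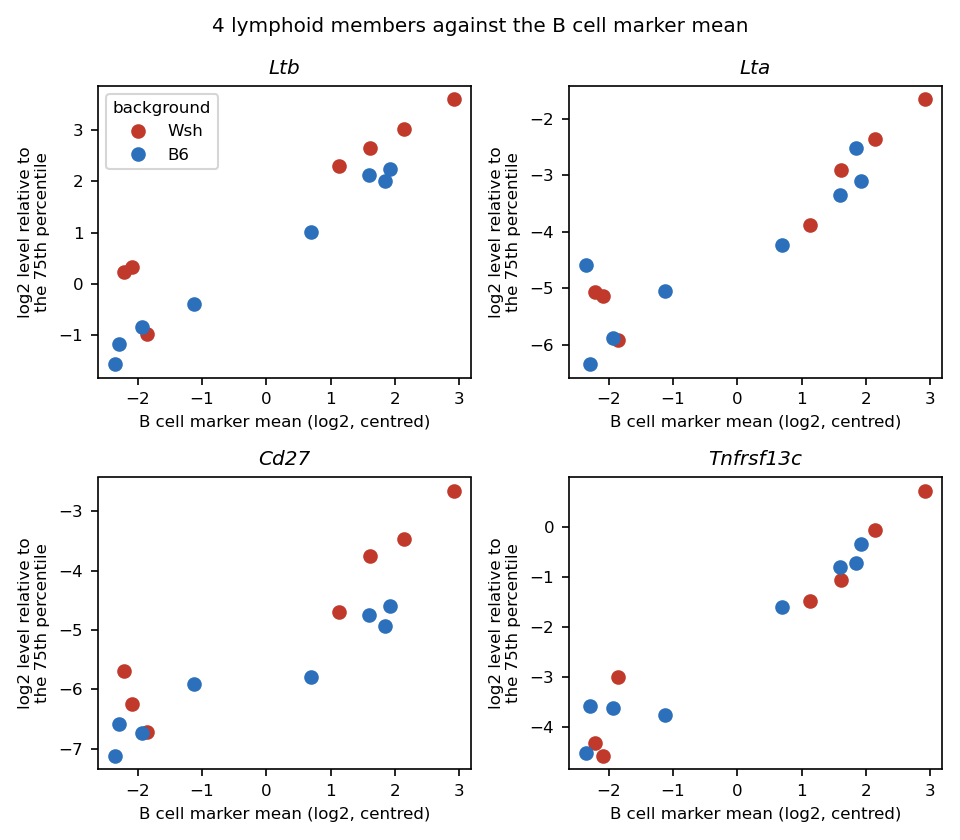
Log2 levels of Ltb, Lta, Cd27 and Tnfrsf13c (vertical axes) against the B cell marker mean (horizontal axes), 1 point per array, Wsh in red and B6 in blue. The 15 arrays form 2 sets along the horizontal axis, 7 at or below -1.13 and 8 at or above 0.69, with both groups in each.

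The B cell marker mean split the arrays into 2 sets with a gap of 34.6% of its range, 7 arrays (3 Wsh and 4 B6) at or below -1.13 and 8 arrays (4 Wsh and 4 B6) at or above 0.69. No correlations with the marker means are given, since the arrays fall into sets and the members described were those with the largest slopes on the same arrays. A term for the 2 sets was added to the limma fit, a setting chosen after seeing the data. Then 0 of 33 members passed, against 0.0313% of all genes (7 of 22333). At an unadjusted p under 0.05 there were 6 members in that fit, and the share of all genes there was not counted. In that fit the slopes of Ltb, Tnfrsf13c and Cd27 were 0.72 (SE 0.19), 0.98 (SE 0.21) and 0.96 (SE 0.18), and none of them passed (limma adjusted p = 0.696, 0.286 and 0.128).

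On the T cell marker mean 9 of 33 members passed as well, all with slopes above 0, against 4.16% of all genes, or 3.01% with a slope above 0. Ltb had a slope of 1.42 (SE 0.08, limma adjusted p = 4.40e-08), Cd27 of 1.04 (SE 0.09, limma adjusted p = 4.39e-06) and Tnfrsf13c of 1.5 (SE 0.17, limma adjusted p = 5.02e-05). The others were Lta (1.17), Tnfsf14 (0.82), Cd40 (0.70), Tnfrsf13b (0.63), Tnfsf15 (0.40) and Tnfrsf4 (0.37). Within slide 1 the slopes of Ltb, Cd27 and Tnfrsf13c were 1.41, 1.14 and 1.76, and within slide 2 they were 1.4, 0.97 and 1.22. On slides 1 and 2 alone 5 and 4 of 33 members passed, against 251 and 237 of 22331 genes. These arrays too formed 2 sets, 8 at or below -0.35 and 7 at or above 0.66, a gap of 29.0% of the range. With a term for these 2 sets 8 of 33 members passed, 7 with a slope above 0, against 8.02% of all genes. Of the 9 members above, Ltb (1.45, limma adjusted p = 0.00385), Tnfrsf13b, Cd40, Cd27 and Tnfsf14 passed in that fit, and Tnfrsf4, Tnfrsf13c, Tnfsf15 and Lta did not (limma adjusted p = 0.065, 0.134, 0.135 and 0.141). Cd27 was well above background on 6 of the 7 arrays of the upper set and 1 of the 8 of the lower set, and with normexp correction its slope on the T cell mean was 0.55 and that of Tnfsf14 0.42. The members well above background on all arrays that passed on the T cell mean were the same 4 as on the B cell mean. They were 4 of 27 such members, against 3.56% of 18589 such genes.

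The B and T cell marker means moved together, since 7 arrays were in the upper set of both and B6 replicate 4 alone was in the upper B cell set and the lower T cell set. Of 11 T cell markers 9 passed on the B cell marker mean, and 6 of 7 genes of lymph node stroma and high endothelial venules passed on each of the B and T cell means. The part of lymph node tissue in these slopes was not tested.

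**Figure D5:**
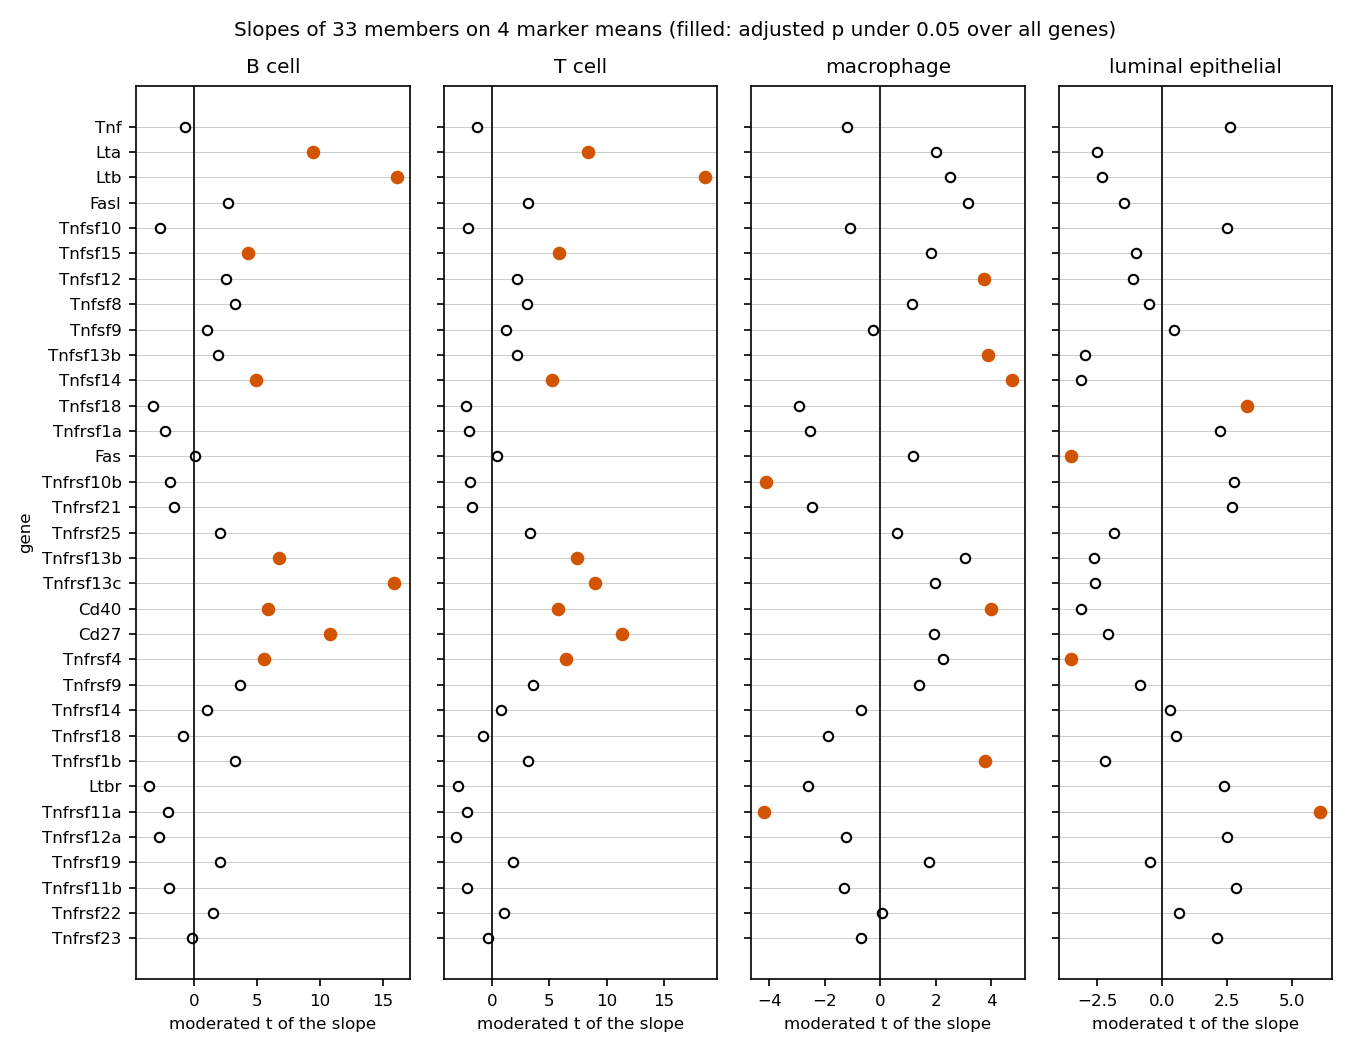
Moderated t of the slope of 33 members (rows) on the B cell, T cell, macrophage and luminal epithelial marker means (panels), with a term for group, filled where the adjusted p over all genes is under 0.05. The B cell and T cell panels each hold 9 filled points, all right of 0, and the macrophage and luminal panels hold 7 and 4 on both sides.

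The promoters of Ltb, Lta, Cd27 and Tnfrsf13c are shown because these 4 members had the largest SDs and the steepest slopes on the B cell marker mean. They are the RefSeq promoter windows of build GRCm38.p6, 300 bases 5′ to 3′ on the strand of the gene, 250 before and 50 after the start, at chr17:35194257-35194556 (+) for Ltb, chr17:35205302-35205601 (-) for Lta, chr6:125236978-125237277 (-) for Cd27 and chr15:82224331-82224630 (-) for Tnfrsf13c. Capitals mark matches to the NF-kappaB consensus, to the octamer ATTTGCAT or to the PU box core GAGGAA, searched on both strands and with no overlap among the matches of Ltb.
Ltb: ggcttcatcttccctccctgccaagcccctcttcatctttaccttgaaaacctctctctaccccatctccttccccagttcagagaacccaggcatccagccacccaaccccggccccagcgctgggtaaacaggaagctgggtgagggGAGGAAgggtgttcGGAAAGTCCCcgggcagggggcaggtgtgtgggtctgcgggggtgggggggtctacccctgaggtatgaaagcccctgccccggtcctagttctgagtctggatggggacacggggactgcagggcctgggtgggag
Lta: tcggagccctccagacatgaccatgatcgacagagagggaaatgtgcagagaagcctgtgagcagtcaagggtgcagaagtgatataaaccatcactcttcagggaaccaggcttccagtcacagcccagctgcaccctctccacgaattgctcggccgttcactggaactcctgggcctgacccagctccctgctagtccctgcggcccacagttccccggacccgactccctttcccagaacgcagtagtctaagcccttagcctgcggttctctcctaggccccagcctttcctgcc
Cd27: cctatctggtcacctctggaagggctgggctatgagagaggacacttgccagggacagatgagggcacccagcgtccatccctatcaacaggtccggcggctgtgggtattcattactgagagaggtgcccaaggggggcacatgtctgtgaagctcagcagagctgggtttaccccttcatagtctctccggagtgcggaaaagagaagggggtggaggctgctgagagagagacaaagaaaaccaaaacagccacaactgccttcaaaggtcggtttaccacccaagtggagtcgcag
Tnfrsf13c: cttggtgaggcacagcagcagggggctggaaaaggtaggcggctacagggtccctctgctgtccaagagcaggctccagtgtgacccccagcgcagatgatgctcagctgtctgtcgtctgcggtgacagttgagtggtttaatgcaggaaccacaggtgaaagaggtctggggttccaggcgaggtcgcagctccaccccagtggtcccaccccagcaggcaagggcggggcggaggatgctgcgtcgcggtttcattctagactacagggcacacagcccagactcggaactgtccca

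The Ltb window held an NF-kappaB match at -87 and a PU box match at -101 from the start, counted at the first base of the match. The windows of Lta, Cd27 and Tnfrsf13c held none of the 3 motifs. RefSeq gave 33 windows for 29 of the 38 members. Of these 33 windows, 3 (9.09%) held an NF-kappaB match, 12 (36.4%) a PU box match and 0 the octamer, against 4.51%, 28.3% and 1.74% of 32851 promoter windows of the same length. A match is a run of letters and not evidence of a bound site.

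The probes that carried these members lay, in build mm9 of the files, at chr17:35333097-35333156 for Ltb, chr17:35340275-35340334 for Lta, chr6:125183200-125183259 for Cd27 and chr15:82052225-82052284 for Tnfrsf13c. Exons and UTRs of that build were not looked up. The Tnf probe, at chr17:35336967-35337026, lay between those of Ltb and Lta, and Tnf had slopes that did not pass on any of the 4 marker means.

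On the macrophage marker mean, of 12 markers, 7 of 33 members passed, against 7.91% of all genes (4.89% with slopes above 0 and 3.02% below). The slopes were above 0 for Tnfsf14 (2.24, SE 0.47, limma adjusted p = 0.0153), Cd40 (1.71), Tnfsf13b (0.92), Tnfsf12 (0.82) and Tnfrsf1b (0.81), and below 0 for Tnfrsf11a (-0.83, SE 0.20, limma adjusted p = 0.0237) and Tnfrsf10b (-0.65, SE 0.16, limma adjusted p = 0.0256). Of these 7 members, 5 were well above background on all arrays, and Tnfsf14 and Cd40 were not. Among genes well above background on all arrays, 5 of 27 members passed, against 7.57% of all 18587 such genes. The slope of Tnfsf14 was 0.86 with normexp correction (limma adjusted p = 0.0664) and did not pass in 4 of 8 other settings, nor without Wsh replicate 1 or B6 replicate 3. Of the same 8 settings, Tnfsf12 and Tnfrsf1b each did not pass in 7, Tnfsf13b in 6, Cd40 in 5, and Tnfrsf11a and Tnfrsf10b each in 3. With 1 array left out, these 6 members lost their calls in 8, 5, 5, 4, 2 and 3 of 15 fits, in that order. The macrophage marker mean ran from -0.17 to 0.65 in Wsh and from -0.96 to 0.62 in B6. Without the 2 arrays farthest from its median 0 members passed in limma, against 24 of 22330 genes. On slide 1 alone 0 members passed, against 102 genes, and on slide 2 alone 0 members and 0 genes passed. At an unadjusted p under 0.05 there were 7, 9 and 3 members, in that order, and the share of all genes there was not counted. The count of members past the threshold was 0 without Wsh replicate 1 and 2 without each of B6 replicate 3, B6 replicate 4 and Wsh replicate 5.

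Within slide 1 the slopes of Tnfsf14, Tnfrsf11a and Tnfrsf10b on the macrophage mean were 2.16, -0.85 and -0.52, and within slide 2 they were 1.70, -0.76 and -0.51. Without the 2 arrays farthest from the median they were 2.48, -0.81 and -1.04, so the direction of each was the same in all 3 subsets, while none passed there (limma adjusted p from 0.068 to 0.646). Of 8 adipocyte markers 7 passed on the macrophage marker mean with slopes above 0, and the adipocyte mean ran from -0.84 to 2.02 in Wsh and from -4.06 to 2.40 in B6. The part of adipose tissue in these slopes was not tested.

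On the luminal epithelial marker mean 4 of 33 members passed, 2 with slopes above 0 and 2 below, against 13.7% of all genes (7.05% above 0 and 6.68% below), a share near the background. Tnfrsf11a had a slope of 1.54 (SE 0.26, limma adjusted p = 0.00526) and Tnfsf18 of 2.40 (SE 0.74, limma adjusted p = 0.0454). Tnfsf18 was well above background on 6 of 7 Wsh and 6 of 8 B6 arrays, and its slope did not pass in 5 of 8 other settings. Fas had a slope of -0.88 (SE 0.25, limma adjusted p = 0.0332) and Tnfrsf4 of -1.32 (SE 0.38, limma adjusted p = 0.0335). The luminal marker mean had a narrow range, from -0.56 to 0.10 in Wsh and from -0.41 to 0.45 in B6. Tnfrsf11a was lowest, at 0.58, in Wsh replicate 1 and highest, at 2.30, in B6 replicate 3, the arrays with the lowest and the highest luminal mean. The same arrays had the highest (0.65) and the lowest (-0.96) macrophage mean. All 10 luminal markers had slopes below 0 on the macrophage mean, so the slopes of Tnfrsf11a on these 2 means are not separate results. Without the 2 arrays farthest from the median of the luminal mean 0 members and 0 of 22332 genes passed in limma. At an unadjusted p under 0.05 there were 4 members, and the share of all genes there was not counted.

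Within slide 1 the slopes of Tnfrsf11a, Fas and Tnfrsf4 on the luminal mean were 1.69, -0.74 and -1.66, and within slide 2 they were 1.04, -0.98 and -0.95. Only that of Tnfrsf11a on slide 1 passed (limma adjusted p = 0.0285). Without the 2 farthest arrays the slopes were 1.34, -0.94 and -0.99, and none passed (limma adjusted p = 0.226, 0.370 and 0.514). With 1 array left out Tnfrsf11a passed in all 15 fits, while Fas lost its call in 5, Tnfrsf4 in 4 and Tnfsf18 in 11. On slide 2 alone 0 members and 0 of 22332 genes passed. The count of members was 1 without each of Wsh replicate 1, B6 replicate 3 and B6 replicate 7. It was 2 without B6 replicate 4, 7 without Wsh replicate 2, and 10 without Wsh replicate 6 and without B6 replicate 8. Of 8 adipocyte markers 7 passed on the luminal marker mean with slopes below 0, and their part was not tested. For no member did the slope on any of the 4 marker means differ between Wsh and B6 past the threshold (limma interaction, 0 of 132 relations, 2 at an unadjusted p under 0.05, lowest adjusted p = 0.9998).

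A further list of 43 measured genes held adaptors, NF-kappaB subunits and induced genes of TNF signalling, and also Eda, Edar, Eda2r, Relt and Ngfr, which belong to the superfamily by structure but not by the naming rule used here. None passed for Wsh minus B6 in limma, against 0.336% of all genes. At an unadjusted p under 0.05 there were 3 of 43, against 10.4% of all genes. The difference lay above 0 for 30 of 43 and for 48.2% of all genes, with a median of 0.10 for the list and -0.01 for all genes. Ikbkg (NEMO), the regulatory subunit of the IkappaB kinase, had -1.89, -1.68 and -1.46 in Wsh, against -1.55, -1.39 and -1.16 in B6 (log2 difference -0.30, SE 0.08, limma adjusted p = 0.185). With the mean of its kept probes in place of the brightest, the difference was -0.028 (SE 0.10, limma adjusted p = 0.948), so its probes disagreed. The chemokine genes Cxcl1 and Ccl2 had differences of 0.86 and 0.76 (limma adjusted p = 0.404 and 0.467). The adhesion genes Vcam1 and Icam1 differed by 0.49 and 0.35, and Map3k14, the NF-kappaB-inducing kinase, by 0.29, with limma adjusted p between 0.529 and 0.543.

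On the T cell marker mean 5 of the 43 signalling genes passed, all with slopes above 0, against 4.16% of all genes. They were Ripk3, a kinase of necroptosis (0.44, limma adjusted p = 0.00535), Nfkbie, an inhibitor of NF-kappaB (0.32, limma adjusted p = 0.00548), Birc3, a TRAF-binding ubiquitin ligase (0.25), Rel, an NF-kappaB subunit of lymphocytes (0.40), and Tnfaip3, the deubiquitinase A20 (0.28). On the B cell marker mean 3 of 43 passed, against 4.03% of all genes, and these were Ripk3 (0.24), Nfkbie (0.17) and Birc3 (0.15). Shares below those of all genes passed on the other means, 2 of 43 against 7.91% on the macrophage mean and 3 of 43 against 13.7% on the luminal mean. On the macrophage marker mean Ripk3 (1.18) and Birc3 (0.65) passed, and on the luminal marker mean Mlkl (0.84) and Tradd (0.68) with slopes above 0 and Ripk3 (-2.00) below 0.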

How the data were processed

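Cy3-labelled RNA, amplified from 7 Wsh and 8 B6 tumours, was hybridised to Agilent arrays with 1 colour, per the labels' protocols. Spot intensities were deposited as read by Agilent Feature Extraction 10.7.3.1, per the file headers, already background-subtracted but not normalized between arrays. A second file deposited by the authors holds log2 values of these arrays, and how they were background-corrected and normalized is not given in the sources used here. Its column medians over non-control spots ran from 8.852 to 8.859, and it served as an alternative.

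Controls and outlier-flagged spots were dropped, replicate spots were averaged per probe, and levels were log2 of the processed intensity minus that of the array's 75th percentile. Probes were kept when 7 or more of the 15 arrays had them well above background (34346), and a gene was its kept probe of highest mean (22342 genes). Names came from a RefSeq table of GRCm38.p6 and coordinates from the files (mm9). limma 3.58.1 in R 4.3.3 gave two-sided tests with Benjamini-Hochberg adjustment over all genes and a threshold of 0.05. Slope and difference fits were tested on simulated data. Levels by group (lowest, median and highest) are given for members past the threshold for Wsh minus B6 and the 10 with the largest absolute t there. They are also given for the 6 with the largest SD and up to 3 per marker mean by absolute t of the slope. Of the 6 signalling genes with the largest t, levels are given for Ikbkg and differences alone for the others. Members and lists were chosen with earlier results of these data known. Of the signalling list, which also holds family members outside the naming rule, Cd70, Edaradd and Bcl2a1a had no kept probe. Alternatives covered background correction, scaling, filters, probe choice, slide, replicate block, array weights, covariates and each array left out. Same-numbered arrays of the 2 groups had correlated deviations from -0.24 to 0.21, with 1 of 7 pairs over 0.1, so the numbers were not taken to pair samples.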

Additional observations from a re-analysis of the deposited data

Results flagged for a closer look

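In 3 of the 66 member-by-group sets tested, 1 array stood apart from the others of its group by Dixon's test at the 95% level, and chance flags about 1 in 20 such sets. Tnfrsf14 was at -2.153 in Wsh replicate 6, the highest of the Wsh arrays, with the next at -4.069. Tnfrsf1a was at 3.566 in Wsh replicate 2, the lowest of the Wsh arrays, with the next at 3.86. Tnfsf12 was at -2.3 in Wsh replicate 1, the highest of the Wsh arrays, with the next at -2.738.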

How the results depend on the processing

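No superfamily member and no signalling gene passed for Wsh minus B6 in any setting run. The count over all genes, 75 as reported, was 25 with no filter on dim probes, 4 on slide 1 alone, 1 on slide 2 alone, 187 with array weights, 133 with adipocyte and skeletal muscle means as covariates, 24 when arrays with muscle transcripts were dropped, and between 25 and 76 with 1 array left out. With the replicate number as a block, which the numbers do not warrant as a pairing, 15 genes and 0 members passed. Median scaling moved the median of all genes to -0.11. The count of members on the B cell marker mean, 9, was 4 on slide 1 alone, 4 on slide 2 alone and 0 with a term for the 2 sets of arrays, and 8 to 12 with 1 array left out. That on the T cell marker mean, 9, was 5 and 4 on the slides alone and 9 to 11 with 1 array left out. That on the macrophage mean, 7, was 3 with normexp correction, 4 each with quantile normalization, slide as a block and the deposited values, 0 on each slide alone and without the 2 farthest arrays, and 0 to 9 with 1 array left out. That on the luminal mean, 4, was 7 with slide as a block, 0 on slide 2 alone and without the 2 farthest arrays, 7 with no term for group, and 1 to 10 with 1 array left out. Wsh minus B6 changed sign for 5 of the 17 members given by array, and the cause was not tested. Tnfrsf10b (0.04) was -0.056 with median scaling, -0.086 on slide 1 alone and between -0.040 and 0.15 with 1 array left out, below 0 without B6 replicate 4, Wsh replicate 5 or Wsh replicate 7. Tnfrsf13c (0.40) was -0.63 on slide 1 alone, -0.74 with array weights, -0.54 with the T cell mean as covariate, and between -0.046 (without Wsh replicate 1) and 0.84 with 1 array left out. Tnfrsf11a (-0.04) was 0.36 on slide 2 alone, 0.035 with array weights, 0.0085 with the B cell mean, 0.14 with the adipocyte and muscle means and 0.088 with the T cell mean as covariates, 0.074 without the arrays with muscle transcripts, and between -0.15 and 0.099 with 1 array left out, above 0 without Wsh replicate 1 or B6 replicate 3. Lta (0.54) was -0.024 with array weights and -0.20 with the T cell mean as covariate, and Cd40 (0.41) was -0.035 with that covariate. Of the other 16 members, 11 changed sign in at least 1 setting and 5 did not. The T cell covariate and the set terms were chosen after seeing the data. With normexp correction the differences of Cd27, Tnfsf14 and Tnfsf15, which were dim on some arrays, were 0.50, 0.31 and 0.29, against 1.05, 0.66 and 0.61 as reported.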
